A study of Caenorhabditis elegans with 9 samples.

Results

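Intestines of adult Caenorhabditis elegans grown with 400 µM heme were compared with intestines of worms grown with 20 µM heme. The comparison uses 6 of the 9 libraries of the series, 3 at 400 µM heme and 3 at 20 µM heme, and covers all genes of the count table. The other 3 libraries, at 2 µM heme, entered the same fit and are given as values. All worms were of the wild-type strain N2, were synchronized at the first larval stage and spent 4 days at 20 °C in the liquid medium mCeHR2, so the groups differ in the labels by heme dose alone. Each library came from the dissected intestines of 3 adult worms, lysed together, reverse transcribed with SMARTScribe, amplified by PCR (SMART-seq) and sequenced on an Illumina NovaSeq. No source says that libraries of 1 dose were grown apart, so p-values here reflect the spread among libraries, which may be technical. Replicates 2 and 3 at 2 µM were more alike than any other pair of 1 dose. Their correlation was 0.976, against 0.740 to 0.913 for the other pairs. Both entered the fit as separate libraries, and with their counts summed 0 genes were called. Of 21776 genes in the table, 13434 passed the filter on low counts and were tested.

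Caenorhabditis elegans cannot make heme and takes it up from its medium through the intestine, a single tube of large polarized cells. HRG proteins carry heme across the membranes of these cells, MRP-5 exports it towards the other tissues, and the same cells digest food, detoxify foreign compounds, fight infection and make the yolk proteins for oocytes. In the adult hermaphrodite the gonad lies against the intestine for most of its length and holds sperm, oocytes, dividing germ cells and the somatic sheath cells around them. Transcripts typical of the gonad are therefore described apart from genes of intestinal function. In bulk samples like these, fewer cells of a type and less RNA per cell cannot be told apart.

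In the 400 µM libraries 63132612, 57099679 and 63752331 counts were recorded for replicates 1 to 3, and in the 20 µM libraries 65555762, 52407256 and 44385011. Levels are given as CPM, counts scaled to a common library size after TMM scaling in edgeR, always in the order of replicates 1, 2 and 3. The scaling factors ran from 0.971 to 1.25 at 400 µM and from 0.599 to 1.19 at 20 µM. Markers of the intestine were present in every library: ges-1, a gut esterase, had 62.5, 44.3 and 67.8 CPM at 400 µM, against 74.0, 173 and 112 CPM at 20 µM, and elt-2, the main transcription factor of intestinal identity, had 15.6, 12.3 and 18 CPM at 400 µM, against 24.4, 18.5 and 66.7 CPM at 20 µM. Several libraries at 20 µM stood apart from one another. Ribosomal RNA took 6.45 to 11.5% of the counts at 400 µM, and 2.31 to 42.1% at 20 µM. Inducible heat shock genes took 0.137, 0.228 and 0.257% of counts at 400 µM, against 2.54, 0.0923 and 0.0314% at 20 µM, so replicate 1 at 20 µM was far above all others. The 6 vitellogenins, yolk proteins made by the adult hermaphrodite intestine, took 7.60, 19.8 and 16.2% at 400 µM and 18.2, 0.0969 and 18.1% at 20 µM, so replicate 2 at 20 µM nearly lacked them although it is labelled adult. The pud genes, well known in adult intestine and hypodermis, took 10.9, 9.11 and 8.49% at 400 µM and 12.7, 3.56 and 0.105% at 20 µM, with replicate 3 at 20 µM far below the rest. Transcripts of the pharynx list, which an intestine should lack, took 0.104, 0.0132 and 0.0109% at 400 µM and 0.173, 0.248 and 0.0149% at 20 µM, so replicates 1 and 2 at 20 µM and replicate 1 at 400 µM held the most. The part these differences have in the results was not tested beyond the fits without single libraries.

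Transcripts of sperm, oocytes and germ cells were higher in the 400 µM intestines than in the 20 µM intestines. Genes of heme transport, the brush border and the cytochrome P450 family held larger shares of genes lower without overlap than all genes tested, but none of them passed the adjusted test. At an edgeR quasi-likelihood adjusted p under 0.05 (Benjamini-Hochberg over all genes tested), 73 genes rose and 1 fell in the 400 µM intestines relative to the 20 µM intestines, which is 0.543% and 0.00744% of the genes tested. A further reading, which needs no test, counts genes whose 3 values at 400 µM all lie above or all lie below the 3 values at 20 µM: 2243 genes (16.7%) lay above and 999 (7.44%) below. Counts without overlap given for the lists below are to be read against these shares. Unadjusted p-values under 0.05 were found for 1508 genes on the higher side (11.2%) and 978 on the lower side (7.28%). Of the 74 genes that passed, 18 belong to the gonad-type lists, all of them higher at 400 µM, and 56 lie outside these lists. Of the 73 that rose, 72 had a mean CPM at 2 µM between the means at 20 and 400 µM. In 0 of the 73 was it below the mean at 20 µM, so their lowest mean was at the middle dose. Of 244 genes of the 7 gonad-type lists 225 passed the filter on low counts, and of 1324 genes in the lists of intestinal function 1173 passed. The lists of intestinal function also hold genes of general cell function, such as 82 tested cytosolic ribosomal protein genes. A gene near 0 in all libraries of a dose could pass through the other libraries alone, so counts and medians over tested genes describe those genes and not every member. Among the 225 gonad-type genes tested, 133 were higher without overlap and 1 was lower, with a median log2 fold change of 2.98, against -0.03 for all genes tested. Among the 1173 genes of intestinal function tested, 85 were higher and 141 lower without overlap, 1 passed the test, and the median log2 fold change was -0.40. Without replicate 1 at 20 µM it was 0.00, where the median over all genes tested was 0.31. Medians given below without that library are to be read against 0.31. The full lists of intestinal function took 56.6 ± 5.17% of all counts at 400 µM and 46.5 ± 17.2% at 20 µM. Their summed CPM was 505802 ± 112320 and 646208 ± 417102 (SD, n = 3 each), so the direction of the means depended on the scaling. The count of 74 depends on single libraries: it became 0 without replicate 1 or replicate 3 at 400 µM or without any 1 of the 2 µM libraries, 1 without replicate 2 or replicate 3 at 20 µM, 135 higher and 0 lower without replicate 2 at 400 µM, and 571 higher and 382 lower without replicate 1 at 20 µM, where all 74 genes were among those called. The Wald test of DESeq2 called 1206 genes higher (9.63% of those with an adjusted p) and 450 lower (3.59%), also with all 74 among them. Other fits ended every call: limma-voom and an edgeR fit of only the 6 libraries compared each called 0 genes higher and 0 lower, with 1912 and 1756 genes at an unadjusted p under 0.05.

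**Figure D1:**
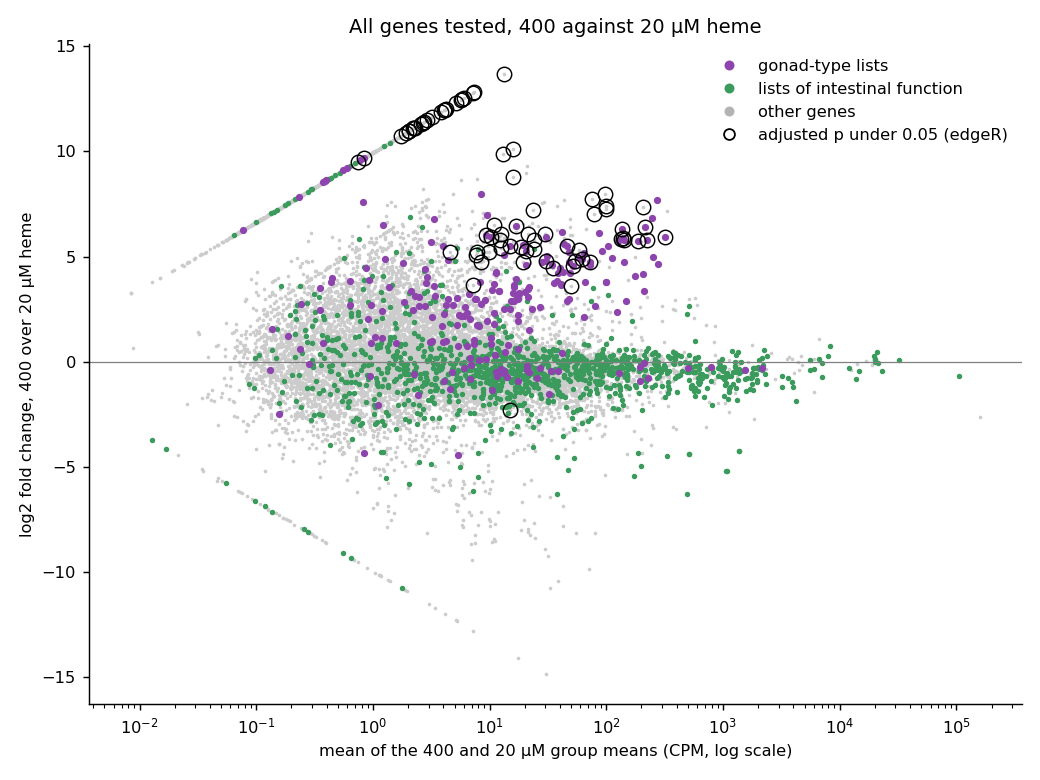
Log2 fold change of 400 over 20 µM heme (vertical axis) against the mean of both group means in TMM-scaled CPM (horizontal axis, log scale) for the 13434 genes tested. Genes of the gonad-type lists are purple, genes of intestinal function green, and the 74 genes with an edgeR adjusted p under 0.05 are ringed; 73 of the ringed genes lie above 0 and 1 below. The straight edges are genes with 0 counts in all libraries of 1 group.

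Sperm transcripts were higher at 400 µM heme. The major sperm proteins, which build the cytoskeleton of the crawling nematode sperm and signal to oocytes, together took 1.33, 0.121 and 0.766% of all counts in the 400 µM libraries and 0.00694, 0.00777 and 0.0276% in the 20 µM libraries. The groups did not overlap, and at 400 µM replicate 1 was highest and replicate 2 lowest, more than 10 times below it. In the 2 µM libraries the share was 0.128, 0.130 and 0.129%, above every 20 µM library and within the range of the 400 µM libraries. Averages were 0.737 ± 0.603% at 400 µM and 0.0141 ± 0.0117% at 20 µM (SD, n = 3 each). All 30 tested msp genes had a positive log2 fold change (median 5.09), 26 lay above the 20 µM libraries without overlap, and 9 passed the test. Near-identical msp copies may share reads, and how such reads were counted is not given in the sources used here, so single msp genes cannot be separated with certainty. The msp genes tested lie on 2 chromosomes, 12 on II and 18 on IV.

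Of single msp genes, msp-59 (WBcel235 chromosome IV, 5312728 to 5313111) had 1128, 158 and 609.6 CPM at 400 µM, against 12.5, 4.79 and 13.9 CPM at 20 µM (log2 fold change of 5.93 ± 0.85 SE, edgeR adjusted p = 0.0355). Levels of msp-51 (chromosome IV, 5294957 to 5295340) were 746, 94.2 and 421 CPM at 400 µM, against 6.27, 5.03 and 3.63 CPM at 20 µM (log2 fold change of 6.40 ± 0.83 SE, edgeR adjusted p = 0.0355). In both genes every 400 µM library lay above every 20 µM library, and replicate 2 was the lowest of the 400 µM libraries by a wide margin. The rises of msp-142, msp-55 and msp-113 were of like size, with log2 fold changes of 6.45, 6.32 and 5.87. Proteins of the ssp and msd families share a domain with the major sperm proteins, and together they took 0.277, 0.0232 and 0.139% at 400 µM and 0.00140, 0.00258 and 0.00605% at 20 µM, again without overlap. Of 17 tested ssp and msd genes, 3 rose and 9 were higher without overlap (median log2 fold change 5.25). For ssp-9, the values were 469.6, 58.8 and 254 CPM at 400 µM, against 3.80, 2.55 and 7.18 CPM at 20 µM (log2 fold change of 5.86 ± 0.85 SE, edgeR adjusted p = 0.0355). Its relative ssp-11 had 494, 62.0 and 274 CPM at 400 µM, against 4.20, 2.97 and 7.61 CPM at 20 µM (log2 fold change of 5.81 ± 0.84 SE, edgeR adjusted p = 0.0355). Both genes showed the order of libraries seen for the msp genes. The third member that rose, ssp-35, had 33.9, 4.30 and 16.8 CPM at 400 µM, against 0.382, 0.355 and 0.0940 CPM at 20 µM (log2 fold change of 6.02 ± 0.91 SE, edgeR adjusted p = 0.0355).

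The nematode-specific peptide genes, small families known only in nematodes, fell into families that behaved differently. Of 58 tested members, 5 rose and 18 were higher without overlap, while the median log2 fold change of the list was -0.16, or 4.19 without replicate 1 at 20 µM. The nspa, nspd and nsph families lay on the higher side, with median log2 fold changes of 4.59 (8 tested genes), 4.77 (9 genes) and 4.62 (7 genes). Summed nspd genes had 799, 112 and 443 CPM at 400 µM and 9.42, 9.02 and 41.4 CPM at 20 µM, with the libraries ordered as for the sperm proteins. The nspg family had 7262, 5044 and 3461 CPM at 400 µM and 15726, 2778 and 1466 CPM at 20 µM, and these groups overlapped because replicate 1 at 20 µM was above every 400 µM library. None of the 18 nspc, 12 nspg, 2 nspb and 2 nspe genes tested was free of overlap in either direction. Among the members that rose, nspa-4 had 28.2, 8.12 and 24.4 CPM at 400 µM, against 0.255, 0.403 and 0.313 CPM at 20 µM (log2 fold change of 5.95 ± 0.60 SE, edgeR adjusted p = 0.0305). Both nspa-5 (126, 28.7 and 117 CPM at 400 µM, 2.19, 1.29 and 2.57 CPM at 20 µM) and nspa-1 (227, 37.3 and 157 CPM at 400 µM, 5.86, 3.58 and 6.33 CPM at 20 µM) rose as well. In all 3 genes the lowest 400 µM library, replicate 2, still lay above the highest 20 µM library.

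Among 40 other genes of spermatogenesis, 38 had a positive log2 fold change (median 3.42), 21 were higher without overlap and 1 passed the test. That gene, gsp-3, encodes a sperm-enriched protein phosphatase 1 subunit and had 114, 20.2 and 43.6 CPM at 400 µM, against 1.96, 1.35 and 3.07 CPM at 20 µM (log2 fold change of 4.80 ± 0.74 SE, edgeR adjusted p = 0.0355). Its close paralog gsp-4 had 51.6, 14.4 and 23.7 CPM at 400 µM, against 1.83, 1.27 and 4.45 CPM at 20 µM, also without overlap, and missed the threshold (log2 fold change of 3.57 ± 0.67 SE, edgeR adjusted p = 0.0548). The list took 0.0578, 0.0118 and 0.0230% of counts at 400 µM, against 0.00767, 0.00488 and 0.00292% at 20 µM. Replicate 1 was the highest 400 µM library in 29 of 30 msp genes, 15 of 17 ssp and msd genes and 32 of 40 other spermatogenesis genes.

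Oocyte and eggshell transcripts were also higher at 400 µM, but with another order of the libraries. These 35 genes together took 0.259, 0.537 and 0.208% of counts at 400 µM, against 0.0304, 0.00722 and 0.0191% at 20 µM, so the groups did not overlap and replicate 2, the lowest for sperm transcripts, was the highest here. Replicate 2 was the highest 400 µM library for 35 of the 35 genes. All 35 had a positive log2 fold change (median 2.94, or 4.46 without replicate 1 at 20 µM), 33 were higher without overlap (94.3% against 16.7% of all genes) and 0 passed the test, while 26 had an unadjusted p under 0.05. Of these, perm-2 (WBcel235 chromosome IV, 1126790 to 1128865), which builds the permeability barrier of the eggshell, had 391, 1034 and 183 CPM at 400 µM, against 4.28, 0.0645 and 3.38 CPM at 20 µM (log2 fold change of 7.70 ± 1.5 SE, edgeR adjusted p = 0.0604). Its partner in the same layer, perm-4, had 447, 857 and 151 CPM at 400 µM, against 4.25, 0.258 and 8.40 CPM at 20 µM (log2 fold change of 6.82 ± 1.33 SE, edgeR adjusted p = 0.0605). Both lay more than 10 times higher in the lowest 400 µM library than in the highest 20 µM library. A smaller difference was seen for mex-1, an RNA-binding protein of oocytes and early embryos, with 14.5, 34.4 and 11.7 CPM at 400 µM, against 2.19, 0.661 and 1.82 CPM at 20 µM.

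General germline genes followed with smaller differences: 23 of 39 were higher without overlap, none passed the test in edgeR, 18 had an unadjusted p under 0.05, DESeq2 called 15, and the median log2 fold change was 1.73. The list took 0.0712, 0.0770 and 0.0603% of counts at 400 µM, against 0.0155, 0.0269 and 0.0232% at 20 µM. For pgl-3, a component of the germ granules called P granules, the values were 14.7, 26.1 and 13.1 CPM at 400 µM, against 4.97, 1.87 and 4.04 CPM at 20 µM (log2 fold change of 2.31 ± 0.50 SE, edgeR adjusted p = 0.0725). The P-granule helicase gene glh-1 had 35.7, 34.1 and 26.1 CPM at 400 µM, against 11.8, 13.9 and 8.18 CPM at 20 µM (log2 fold change of 1.5 ± 0.36 SE, edgeR adjusted p = 0.0991). Levels of syp-1, which encodes a protein of the synaptonemal complex of meiosis, were 9.87, 11.7 and 10.6 CPM at 400 µM, against 1.86, 1.39 and 3.26 CPM at 20 µM. None of these 3 genes overlapped between the groups. Of the 6 somatic gonad genes, inx-8, a gap-junction protein of the sheath cells, had 19.6, 24.2 and 6.98 CPM at 400 µM, against 0.204, 0 and 0 CPM at 20 µM (log2 fold change of 7.96 ± 1.41 SE, edgeR adjusted p = 0.0517). Likewise inx-9, its partner in the sheath, had 10.4, 7.80 and 1.57 CPM at 400 µM, against 0.178, 0 and 0 CPM at 20 µM. The phosphatase gene ipp-5, active in the spermatheca and sheath, had 3.60, 2.74 and 2.19 CPM at 400 µM, against 3.90, 7.83 and 4.20 CPM at 20 µM and lay lower at 400 µM without overlap. Both inx genes were at 0 counts in replicates 2 and 3 at 20 µM and present in all 3 libraries at 400 µM.

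**Figure D2:**
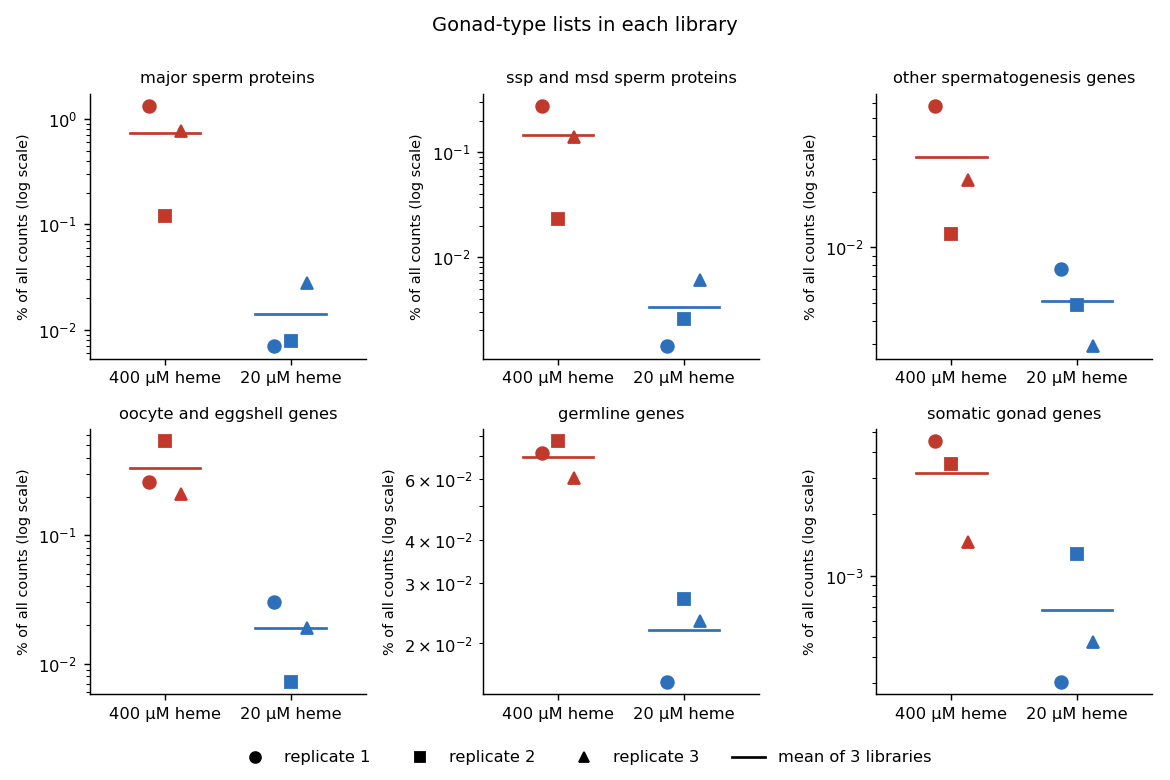
Share of all counts (vertical axes, %, log scale) taken by 6 gonad-type lists in the 3 libraries at 400 µM heme (left, red) and the 3 at 20 µM heme (right, blue); marker shapes give the replicate and lines the mean of 3 libraries. Replicate 1 is the highest 400 µM library for the sperm lists (1.33% for major sperm proteins) and replicate 2 for the oocyte and eggshell genes (0.537%).

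Outside the gonad-type lists, 55 genes rose at 400 µM, and 55 of the 56 changed genes are in none of the 45 lists. With the gonad-type genes taken out of the fit, 8 of these genes passed the test. Most of the 55 followed the sperm transcripts from library to library. Over the 9 libraries, the correlation of log2(CPM + 1) with the summed major sperm protein, ssp and msd genes had a median of 0.931 (range 0.615 to 0.981) for the 55 genes, and 48 of them exceeded 0.9, as did 279 of all 13434 genes (2.08%). These correlations share their libraries with the comparison itself, so a gene higher at 400 µM gains in likeness by that alone. The order of the 3 libraries within 400 µM ran replicate 1, then 3, then 2, as for the sperm proteins, in 49 of the 55 genes, against 2675 of all genes tested (19.9%). The genes were called with these same libraries, and the calls were lost without replicate 1 or replicate 3 at 400 µM. This order is therefore not independent of the calling. Over all 2243 genes higher without overlap, 734 (32.7%) had this order and 467 (20.8%) the order of the oocyte genes, replicate 2, then 1, then 3, which 1934 of all genes tested had (14.4%). Among these genes without overlap, 244 had a correlation over 0.9 with the sperm sum and 329 with the summed oocyte and germline lists. The 74 changed genes lay on chromosome I in 18 cases, II in 17, III in 5, IV in 21, V in 11 and X in 2, while 12.7% of all genes tested are on X.

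**Figure D3:**
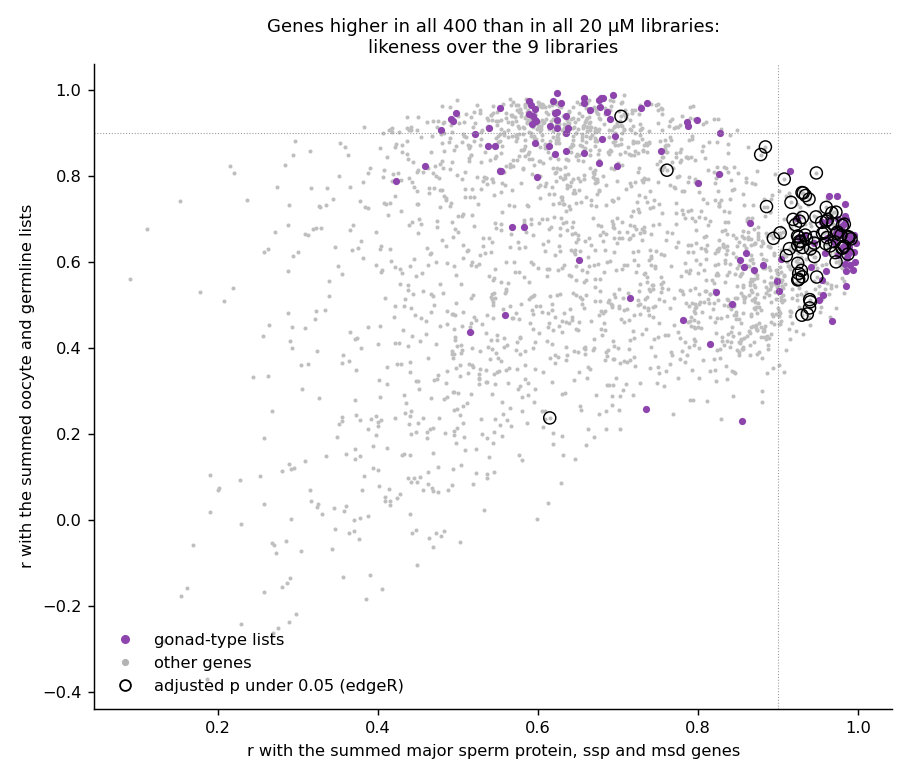
Each point is 1 of the 2243 genes higher in every 400 µM than in every 20 µM library. Axes give the Pearson correlation over the 9 libraries with the summed major sperm protein, ssp and msd genes (horizontal) and with the summed oocyte and germline lists (vertical), dotted lines mark 0.9, purple points are members of the gonad-type lists and rings mark an edgeR adjusted p under 0.05. The ringed genes crowd at the right edge, where 244 points exceed 0.9.

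Of the 73 genes that rose, 25 had 0 counts in all 20 µM libraries, and their fold is given as a lower bound against 3 counts over the 3 libraries of 20 µM. W03D8.9 (WBcel235 chromosome I, 2784620 to 2786077) had 40.9, 9.94 and 29.4 CPM in the 400 µM libraries and 0 counts in each 20 µM library, at least 1189-fold higher (edgeR adjusted p = 0.0343). C17H12.3 (chromosome IV, 6793912 to 6795213) had 33.5, 2.92 and 7.92 CPM at 400 µM and 0 counts at 20 µM, at least 657-fold higher. Both genes had their highest value in replicate 1 and their lowest in replicate 2, as the sperm proteins did. The same order held for C01G12.3, with 16.6, 4.80 and 9.53 CPM, and for ZK637.12, with 24.5, 3.77 and 7.78 CPM, each at 0 counts at 20 µM and at least 458-fold and 534-fold higher. All 25 genes at 0 counts at 20 µM had counts in the 2 µM libraries, where W03D8.9 reached 2.92, 7.24 and 8.36 CPM. With counts in both groups, F08B4.8 had 326, 31.9 and 221 CPM at 400 µM, against 1.02, 0.50 and 0.783 CPM at 20 µM (log2 fold change of 7.98 ± 0.95 SE, edgeR adjusted p = 0.0343). F26B1.8 had 264, 20.2 and 162 CPM at 400 µM, against 0.790, 0.50 and 0.815 CPM at 20 µM (log2 fold change of 7.73 ± 1.09 SE, edgeR adjusted p = 0.0355). Y59E9AR.7 had 750.2, 106 and 368 CPM at 400 µM, against 4.13, 2.59 and 0.752 CPM at 20 µM (log2 fold change of 7.35 ± 1.01 SE, edgeR adjusted p = 0.0355). In these genes replicate 2 was again the lowest 400 µM library, and no 20 µM library came near it. Genes with a known product were few: spch-2, a basic protein of sperm chromatin, averaged 46.9 ± 41.2 CPM at 400 µM and 0.846 ± 0.764 CPM at 20 µM (SD, n = 3 each). A B-type cyclin of dividing cells, cyb-1, averaged 66.3 ± 29.0 CPM at 400 µM and 2.99 ± 2.20 CPM at 20 µM. Both were named after their values were seen. Other genes with a symbol also rose outside the gonad-type lists, among them fis-1, snb-6, scrm-6, mpz-3, msrp-3, Y38H8A.3 (ttbk-8.1) and C39H7.1 (ttbk-8.2).

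Of the 55 genes, 7 had a correlation of 0.9 or less with the sperm sum, 4 of them between 0.878 and 0.894. Tyramine beta-hydroxylase (tbh-1, WBcel235 chromosome X, 15500256 to 15504895), which makes octopamine in a pair of neurons and in the gonadal sheath, had 19.1, 14.1 and 10.4 CPM at 400 µM and 0 counts at 20 µM, at least 644-fold higher (edgeR adjusted p = 0.0183). Its replicate 2 stood above replicate 3, unlike the sperm proteins. The germline innexin inx-14 had 12.4, 17.8 and 9.87 CPM at 400 µM, against 1.86, 0.548 and 0.783 CPM at 20 µM (log2 fold change of 3.65 ± 0.61 SE, edgeR adjusted p = 0.0417), with replicate 2 highest and a correlation of 0.938 with the oocyte and germline sum. K11D12.13 had 7.11, 13.8 and 3.90 CPM at 400 µM and 0 counts at 20 µM, at least 368-fold higher, also with replicate 2 on top. The least sperm-like gene was tmc-2, a transmembrane channel-like gene with a correlation of 0.615, which had 1.11, 1.10 and 2.25 CPM at 400 µM and 0 counts at 20 µM, at least 65.9-fold higher. At 2 µM heme tmc-2 had 1.18, 4.52 and 4.27 CPM, above the 400 µM libraries on average. The other 3, cyb-1, F21D9.2 and F28A10.12, had correlations of 0.884, 0.886 and 0.894. The 2 changed genes on chromosome X were tbh-1 and tmc-2.

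Of all genes, R07B7.6 was the 1 that fell. R07B7.6, a protein-coding gene at WBcel235 chromosome V, 12072862 to 12074986, had 4.85, 3.74 and 6.80 CPM at 400 µM, against 21, 25.1 and 28.6 CPM at 20 µM (log2 fold change of -2.28 ± 0.37 SE, edgeR adjusted p = 0.0403), and the groups were well separated with little spread within each. Its 2 µM values were 10.6, 9.09 and 8.25 CPM, between both groups. The call was lost without any 1 library other than replicate 1 at 20 µM, as given with the counts of changed genes. The next genes on the lower side missed the threshold and are given as values. For amph-1, the worm amphiphysin that bends membranes of recycling endosomes, they were 7.52, 8.82 and 9.84 CPM at 400 µM, against 22, 36.4 and 53.4 CPM at 20 µM (log2 fold change of -2.09 ± 0.41 SE, edgeR adjusted p = 0.0604). The kinesin-1 heavy chain gene unc-116, a motor of organelle transport, had 45.8, 51.6 and 50.5 CPM at 400 µM, against 135, 137 and 237 CPM at 20 µM (log2 fold change of -1.78 ± 0.38 SE, edgeR adjusted p = 0.0700). Both genes were nearly level across the 400 µM libraries. F53B2.8 had 44.1, 46.7 and 72.8 CPM at 400 µM, against 715, 133 and 461 CPM at 20 µM (log2 fold change of -3.0 ± 0.64 SE, edgeR adjusted p = 0.0706). C08E8.4 had 2.45, 1.55 and 2.30 CPM at 400 µM, against 9.70, 44.8 and 11.123 CPM at 20 µM (log2 fold change of -3.38 ± 0.66 SE, edgeR adjusted p = 0.0605). A bZIP transcription factor gene of the intracellular pathogen response, zip-1, had 4.24, 2.62 and 4.90 CPM at 400 µM, against 9.50, 20.9 and 40.7 CPM at 20 µM (log2 fold change of -2.60 ± 0.55 SE, edgeR adjusted p = 0.0700). None of these 5 genes overlapped between the groups.

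Within the lists of intestinal function, heme transport genes lay lower at 400 µM. Heme transport and trafficking genes together had 143, 151 and 138 CPM at 400 µM and 2333, 324 and 814 CPM at 20 µM, so every 400 µM library lay below every 20 µM library and the 400 µM libraries were nearly equal. Of 12 tested genes, 4 were lower without overlap (33.3% against 7.44% of all genes), 5 had an unadjusted p under 0.05, and none passed the adjusted test in edgeR, while DESeq2 called 3 lower. The secreted protease-like HRG-7 carries a heme signal between intestine and neurons, and hrg-7 (WBcel235 chromosome V, 12742041 to 12744171) had 31.3, 23.1 and 31.4 CPM at 400 µM, against 1631, 98.1 and 176 CPM at 20 µM (log2 fold change of -4.47 ± 1.10 SE, edgeR adjusted p = 0.105). The importer of the apical membrane, hrg-4 (chromosome IV, 11030143 to 11030993), had 3.21, 1.59 and 0.875 CPM at 400 µM, against 30.9, 7.85 and 17.7 CPM at 20 µM (log2 fold change of -3.31 ± 0.72 SE, edgeR adjusted p = 0.0725). For hrg-1, which moves heme out of lysosome-related compartments, the values were 3.73, 2.29 and 1.98 CPM at 400 µM, against 116, 4.22 and 11.9 CPM at 20 µM (log2 fold change of -4.05 ± 1.13 SE, edgeR adjusted p = 0.137). These 3 genes were lower in all 400 µM libraries, and replicate 1 was the highest 20 µM library in each. The intestinal heme exporter mrp-5 had 43.4, 84.7 and 78.2 CPM at 400 µM, against 244, 187 and 566 CPM at 20 µM (log2 fold change of -2.27 ± 0.60 SE, edgeR adjusted p = 0.123), also without overlap. The gene of the secreted heme carrier of the embryo supply, hrg-3, had 2.71, 2.45 and 4.16 CPM at 400 µM, against 197, 1.74 and 17.7 CPM at 20 µM (log2 fold change of -4.53 ± 1.39 SE, edgeR adjusted p = 0.159), and here replicate 2 at 20 µM lay below all 400 µM libraries. Low or overlapping values were found for the other 7 genes: hrg-2, a hypodermal heme protein gene, had 1.41, 0 and 1.02 CPM at 400 µM, against 2.73, 0.774 and 2.07 CPM at 20 µM. For hrg-5 and hrg-6, paralogs of hrg-4, the highest values were 1.23 and 2.16 CPM at 400 µM and 4.15 and 3.01 CPM at 20 µM. R186.1, now named hrg-9, had 3.32, 1.03 and 1.31 CPM at 400 µM, against 2.42, 0.306 and 0.0627 CPM at 20 µM. Y80D3A.9, now hrg-10, had 1.99, 1.95 and 2.69 CPM at 400 µM, against 3.80, 0.741 and 2.32 CPM at 20 µM. The glutathione S-transferase genes of the list, gst-19 and gst-22, overlapped between the groups, with 11.8, 17.5 and 5.08 CPM at 400 µM and 22.8, 10.04 and 0.251 CPM at 20 µM for gst-19, and 37.7, 13.8 and 8.33 CPM at 400 µM and 75, 10.5 and 20.2 CPM at 20 µM for gst-22.

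**Figure D4:**
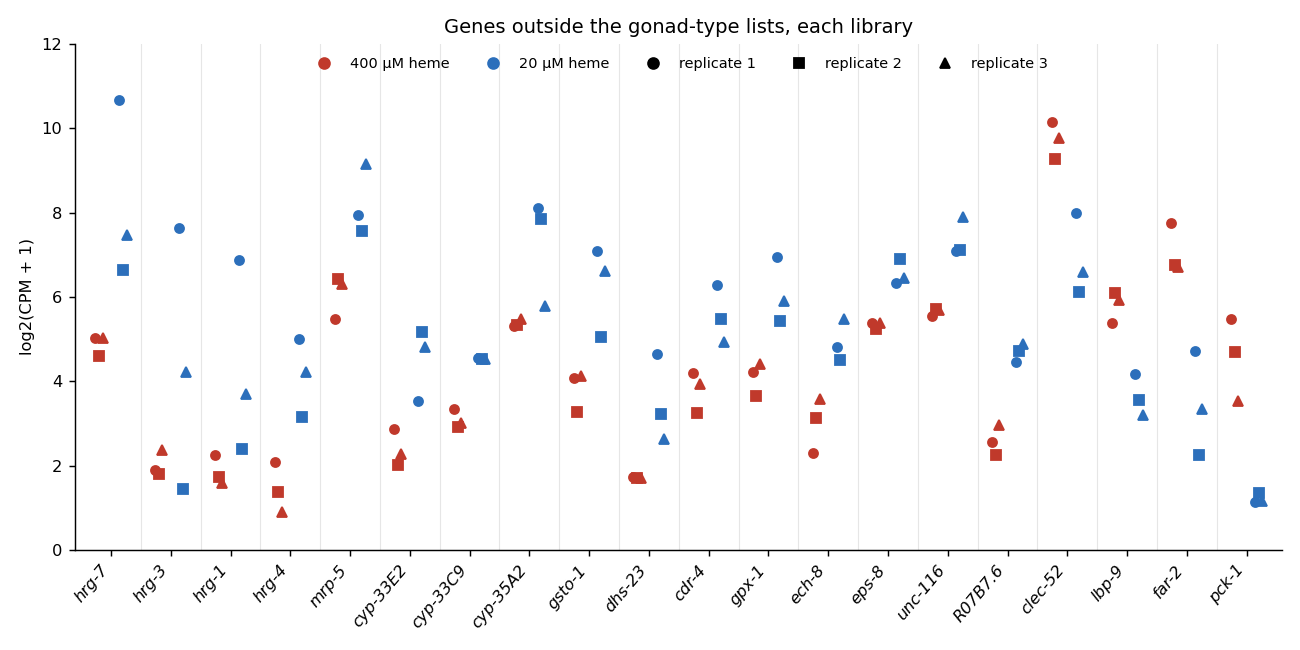
log2(CPM + 1) in each library (vertical axis) of 20 named genes outside the gonad-type lists, with the 3 libraries at 400 µM heme (red, left of each pair) and the 3 at 20 µM heme (blue, right); marker shapes give the replicate. The first 16 genes lie lower at 400 µM, of which hrg-3 alone overlaps, and the last 4, clec-52, lbp-9, far-2 and pck-1, lie higher; of the 20, R07B7.6 passed the test (edgeR adjusted p = 0.0403).

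Genes of intestinal identity and the brush border were lower without overlap in 8 of 23 cases (34.8%) and higher in 1, with a median log2 fold change of -0.68 and none past the test in edgeR. Without replicate 1 at 20 µM the median was -0.33, against 0.31 over all genes tested, and edgeR called 2 of these genes higher and 0 lower. With all libraries DESeq2 called 4 of them lower. Summed over the list, levels were 3273, 2440 and 2361 CPM at 400 µM and 6228, 4042 and 2620 CPM at 20 µM, so the groups overlapped in that sum. The microvillus actin regulator eps-8 had 40.7, 36.5 and 40.8 CPM at 400 µM, against 79.0, 119.01 and 87.0 CPM at 20 µM (log2 fold change of -1.27 ± 0.37 SE, edgeR adjusted p = 0.145). Intermediate filaments of the terminal web under the brush border followed, and ifd-2 had 21.2, 7.54 and 9.40 CPM at 400 µM, against 27.2, 61.7 and 38.6 CPM at 20 µM (log2 fold change of -1.74 ± 0.52 SE, edgeR adjusted p = 0.153). The filament gene ifb-2 had 340.2, 272 and 316 CPM at 400 µM, against 601, 1176 and 690.4 CPM at 20 µM. The terminal-web gene listed as C15C7.5 (bbln-1) had 7.06, 7.49 and 6.38 CPM at 400 µM, against 27.5, 49.8 and 9.49 CPM at 20 µM. In all 4 genes replicate 2 was the highest of the 20 µM libraries, and the groups did not overlap. The gene higher without overlap was pbo-4, a proton exchanger of the posterior intestine, with 22.5, 18.8 and 17.9 CPM at 400 µM, against 14.3, 2.21 and 5.45 CPM at 20 µM.

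Cytochrome P450 genes, heme enzymes that oxidize fatty acids and foreign compounds, gave the largest count of lower genes among the enzyme lists: 19 of 57 were lower without overlap (33.3%), 4 were higher, and the median log2 fold change was -1.10. None passed the adjusted test in edgeR, 18 had an unadjusted p under 0.05 on the lower side, and DESeq2 called 11 lower and 2 higher. Summed over the list, levels were 286, 308 and 345 CPM at 400 µM and 888, 961 and 743 CPM at 20 µM. In CPM that sum varied little within either group and the groups did not overlap. As shares of all counts the 20 µM libraries were less alike: 0.0357, 0.0299 and 0.0415% at 400 µM, against 0.0532, 0.114 and 0.0535% at 20 µM, also without overlap. For cyp-33E2 the values were 6.34, 3.03 and 3.82 CPM at 400 µM, against 10.6, 34.9 and 26.9 CPM at 20 µM (log2 fold change of -2.45 ± 0.52 SE, edgeR adjusted p = 0.0698). For cyp-33C9 they were 9.10, 6.50 and 7.09 CPM at 400 µM, against 22.5, 22.1 and 22 CPM at 20 µM (log2 fold change of -1.55 ± 0.34 SE, edgeR adjusted p = 0.0776), with nearly equal 20 µM libraries. The xenobiotic-responsive cyp-35A2 had 38.4, 39.6 and 43.2 CPM at 400 µM, against 277, 229.7 and 54 CPM at 20 µM (log2 fold change of -2.21 ± 0.59 SE, edgeR adjusted p = 0.125). On the other side, cyp-31A2, which acts in making the eggshell, had 6.31, 13.5 and 11.0 CPM at 400 µM, against 0.713, 0 and 0 CPM at 20 µM and is named after its values were seen.

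Other detoxification families were more mixed. Over all genes tested, 7.44% were lower and 16.7% higher without overlap. Of 54 tested UDP-glucuronosyltransferases, which attach sugars to lipophilic compounds, 8 were lower and 6 higher without overlap (median log2 fold change -0.62, or -0.16 without replicate 1 at 20 µM). Glutathione S-transferases counted 2 lower (4.88%) and 1 higher (2.44%) of 41 (median -1.16, or 0.52 without replicate 1 at 20 µM). In the omega-class gene gsto-1, lower without overlap, levels were 15.9, 8.59 and 16.4 CPM at 400 µM, against 135, 32 and 97.8 CPM at 20 µM (log2 fold change of -2.70 ± 0.62 SE, edgeR adjusted p = 0.0876). Short-chain dehydrogenases counted 6 lower (21.4%) and 5 higher (17.9%) of 28 (median -0.58, or 0.14 without replicate 1 at 20 µM). Within that family, dhs-23 had 2.34, 2.24 and 2.27 CPM at 400 µM, against 24.2, 8.28 and 5.14 CPM at 20 µM (log2 fold change of -2.46 ± 0.57 SE, edgeR adjusted p = 0.0932). Its family member dhs-9 had 27.5, 26 and 55.3 CPM at 400 µM, against 131, 113 and 72.3 CPM at 20 µM (log2 fold change of -1.54 ± 0.44 SE, edgeR adjusted p = 0.140), and neither gene overlapped between the groups. ABC transporters, which pump compounds across membranes, were lower without overlap in 9 of 49 cases (18.4%), mrp-5 among them, and higher in 2 (median -0.64). Nuclear hormone receptors, transcription factors of which some control such enzymes, were lower without overlap in 33 of 176 (18.8%) and higher in 3 (median -0.56). As an example, nhr-125 had 4.45, 3.81 and 5.94 CPM at 400 µM, against 10.7, 13.7 and 21.3 CPM at 20 µM (log2 fold change of -1.69 ± 0.48 SE, edgeR adjusted p = 0.139). Solute transporters of the brush border showed no such lean, with 5 lower (8.47%) and 7 higher (11.9%) of 59 (median -0.17, or 0.08 without replicate 1 at 20 µM). No gene of these 6 lists passed the adjusted test in edgeR.

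Among genes tied to metals and heme enzymes, cyc-2.2 rose, the single gene of the lists of intestinal function that passed the test. This cytochrome c paralog had 78.6, 16.6 and 46.1 CPM at 400 µM, against 0.306, 0.870 and 2.29 CPM at 20 µM (log2 fold change of 5.35 ± 0.89 SE, edgeR adjusted p = 0.0414), in the library order of the sperm proteins and with a correlation of 0.972 with their sum. Another heme enzyme gene, the peroxidase skpo-1, had 16.3, 19.1 and 11.5 CPM at 400 µM, against 0, 0.193 and 0.971 CPM at 20 µM (log2 fold change of 5.35 ± 1.28 SE, edgeR adjusted p = 0.0991) and a correlation of 0.920 with the oocyte and germline sum. The intestinal metal importer smf-3, which takes up iron and manganese, had 11.3, 20.2 and 13.9 CPM at 400 µM, against 7.51, 4.32 and 6.08 CPM at 20 µM, higher without overlap. Ferritin gene ftn-1 overlapped widely, with 88.8, 287 and 160.1 CPM at 400 µM, against 1248, 160.0 and 69.6 CPM at 20 µM. Cadmium-responsive cdr-4 had 17.4, 8.54 and 14.2 CPM at 400 µM, against 77.1, 43.3 and 29.4 CPM at 20 µM (log2 fold change of -1.90 ± 0.47 SE, edgeR adjusted p = 0.110). Its relative cdr-2 had 17.4, 6.15 and 11.0 CPM at 400 µM, against 28.1, 50.3 and 24.0 CPM at 20 µM (log2 fold change of -1.57 ± 0.48 SE, edgeR adjusted p = 0.159), and both were lower without overlap. Redox genes counted 2 lower (6.67%) and 1 higher (3.33%) without overlap of 30 (median log2 fold change -0.33, or 0.07 without replicate 1 at 20 µM). Glutathione peroxidase gpx-1 had 17.5, 11.6 and 20.3 CPM at 400 µM, against 121.8, 42.4 and 58.4 CPM at 20 µM (log2 fold change of -2.17 ± 0.61 SE, edgeR adjusted p = 0.138). HIF-1 and sulfide response genes counted 1 lower of 14, hif-1 itself, which had 73.1, 121.9 and 126 CPM at 400 µM, against 138, 131 and 316 CPM at 20 µM.

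Digestive and yolk genes mostly overlapped between the groups. The aspartyl protease asp-1 had 19001, 25882 and 27673 CPM at 400 µM, against 21174, 11728 and 19002 CPM at 20 µM. The cathepsin B-like gene F57F5.1 (cpr-9) had 16127, 25832 and 17096 CPM at 400 µM, against 48748, 14268 and 16448 CPM at 20 µM. The yolk protein gene vit-2 ranged from 34005 to 120284 CPM at 400 µM and from 457 to 220596 CPM at 20 µM, so the 20 µM libraries enclosed the 400 µM ones. Of cysteine proteases, cpr-8 had 23.7, 12.8 and 7.44 CPM at 400 µM, against 239, 58.8 and 29.2 CPM at 20 µM (log2 fold change of -2.90 ± 0.83 SE, edgeR adjusted p = 0.142). The cathepsin Z gene cpz-2 had 276, 359 and 345 CPM at 400 µM, against 398, 1260.2 and 1486 CPM at 20 µM (log2 fold change of -1.68 ± 0.53 SE, edgeR adjusted p = 0.167). These genes were the 2 of 12 lower without overlap. Saposin-like spp-8, of a family of membrane-acting antimicrobial proteins, had 523, 669 and 620.1 CPM at 400 µM, against 2129, 1578 and 1205 CPM at 20 µM (log2 fold change of -1.44 ± 0.51 SE, edgeR adjusted p = 0.199).

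Genes of infection response lay on either side. The 25 tested pals genes, a family induced by intracellular infection, all had a negative log2 fold change (median -2.51), 5 were lower without overlap, 12 had an unadjusted p under 0.05 and DESeq2 called 7 lower. Much of their sum came from 1 library: it was 121, 75.7 and 143 CPM at 400 µM and 199, 252 and 1718 CPM at 20 µM. There pals-37 had 2.10, 1.28 and 4.28 CPM at 400 µM, against 8.43, 24.5 and 243 CPM at 20 µM (log2 fold change of -5.17 ± 1.26 SE, edgeR adjusted p = 0.104). Its family member pals-39 had 5.77, 2.76 and 3.97 CPM at 400 µM, against 16.1, 33.2 and 254 CPM at 20 µM, and in both genes replicate 3 was the highest at 20 µM by far. C-type lectins, sugar-binding proteins of which many respond to infection, were higher without overlap in 15 of 117 genes (12.8%, against 16.7% of all genes) and lower in 3. Their median log2 fold change was 0.00, or 1.39 without replicate 1 at 20 µM, while edgeR called none. On the higher side 12 had an unadjusted p under 0.05, and DESeq2 called 5 higher. Among these, clec-52 (WBcel235 chromosome IV, 8167164 to 8168760) had 1138, 615 and 869 CPM at 400 µM, against 254, 68.9 and 95.2 CPM at 20 µM (log2 fold change of 2.65 ± 0.76 SE, edgeR adjusted p = 0.142). Its correlation was 0.319 with the sperm sum and 0.677 with the oocyte and germline sum.

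Lipid metabolism genes lay on both sides. Fatty acid and lipid binding genes were higher without overlap in 7 of 18 cases (38.9%, against 16.7% of all genes) and lower in 1 (median log2 fold change 0.76, or 1.99 without replicate 1 at 20 µM). Of them, lbp-9 had 40.8, 66.8 and 60.3 CPM at 400 µM, against 17.1, 10.8 and 8.15 CPM at 20 µM (log2 fold change of 2.22 ± 0.47 SE, edgeR adjusted p = 0.0700) and a correlation of 0.928 with the oocyte and germline sum. The gene of the fatty acid and retinol binding protein FAR-2 had 214, 108 and 104 CPM at 400 µM, against 25.1, 3.77 and 9.09 CPM at 20 µM (log2 fold change of 3.49 ± 1.14 SE, edgeR adjusted p = 0.175), without overlap. The delta-9 desaturase fat-6 had 579, 1132 and 584 CPM at 400 µM, against 418, 333 and 423 CPM at 20 µM, higher without overlap. Fatty acid activation and oxidation genes counted 9 lower and 5 higher of 61 (median -0.51). The enoyl-CoA hydratase gene ech-8 had 3.91, 7.67 and 10.9 CPM at 400 µM, against 26.9, 21.7 and 43.6 CPM at 20 µM (log2 fold change of -2.04 ± 0.48 SE, edgeR adjusted p = 0.0951), lower without overlap. In central metabolism pck-1, phosphoenolpyruvate carboxykinase of gluconeogenesis, had 43.4, 24.7 and 10.5 CPM at 400 µM, against 1.20, 1.55 and 1.22 CPM at 20 µM (log2 fold change of 4.31 ± 1.25 SE, edgeR adjusted p = 0.146), with nearly equal values at 20 µM. Its 2 µM values were 81.3, 4.18 and 3.86 CPM. The glyceraldehyde-3-phosphate dehydrogenase gene gpd-4 had 17.3, 64 and 30.1 CPM at 400 µM, against 10.04, 1.89 and 2.95 CPM at 20 µM and a correlation of 0.964 with the oocyte and germline sum.

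In TMM-scaled CPM most ribosomal protein genes lay lower at 400 µM, with some exceptions given first, while respiratory chain genes lay on both sides. ATP synthase subunit gene asb-1, known as the germline copy, had 30.2, 33.4 and 29.8 CPM at 400 µM, against 16.8, 13.8 and 11.4 CPM at 20 µM and a correlation of 0.920 with the oocyte and germline sum. The ribosomal protein gene rpl-11.1 had 123, 131 and 133 CPM at 400 µM, against 29.9, 14.3 and 8.40 CPM at 20 µM (log2 fold change of 2.88 ± 0.65 SE, edgeR adjusted p = 0.0842) and a correlation of 0.901 with that sum. Its paralog rpl-11.2 had 703, 956 and 912 CPM at 400 µM, against 1098, 1583 and 1461 CPM at 20 µM, so the copies lay on opposite sides without overlap. Complex III gene ucr-2.3 had 21, 16.8 and 18.2 CPM at 400 µM, against 5.68, 2.08 and 4.64 CPM at 20 µM (log2 fold change of 2.18 ± 0.43 SE, edgeR adjusted p = 0.0629) and a correlation of 0.934. Of the 82 ribosomal protein genes 76 had a negative log2 fold change (median -0.56, or -0.76 without replicate 1 at 20 µM). As shares of all counts the groups overlapped, with 7.55, 8.01 and 8.89% at 400 µM, against 5.17, 14.2 and 9.06% at 20 µM. Without overlap 12 were lower (14.6%, against 7.44% of all genes) and 3 higher (3.66%, against 16.7%). Respiratory chain genes had a median of 0.10 and vacuolar ATPase genes of -0.07 (0.34 and 0.88 without replicate 1 at 20 µM). Of them, 6 of 69 (8.70%) and 2 of 21 (9.52%) were higher without overlap, against 16.7% of all genes. Being higher without overlap raises these correlations by itself. Of 84 such genes in the lists of intestinal function and in no gonad-type list, 19 (22.6%) exceeded 0.9 with the sperm or the oocyte and germline sum. This is near the 573 of 2243 (25.5%) among all genes higher without overlap. Between 400 and 20 µM these sums and the heme dose moved together, so they cannot be told apart for single genes. Over the 3 doses the sperm sum did not follow dose: the major sperm proteins took 0.128 to 0.130% of counts at 2 µM, above every 20 µM library.

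**Figure D5:**
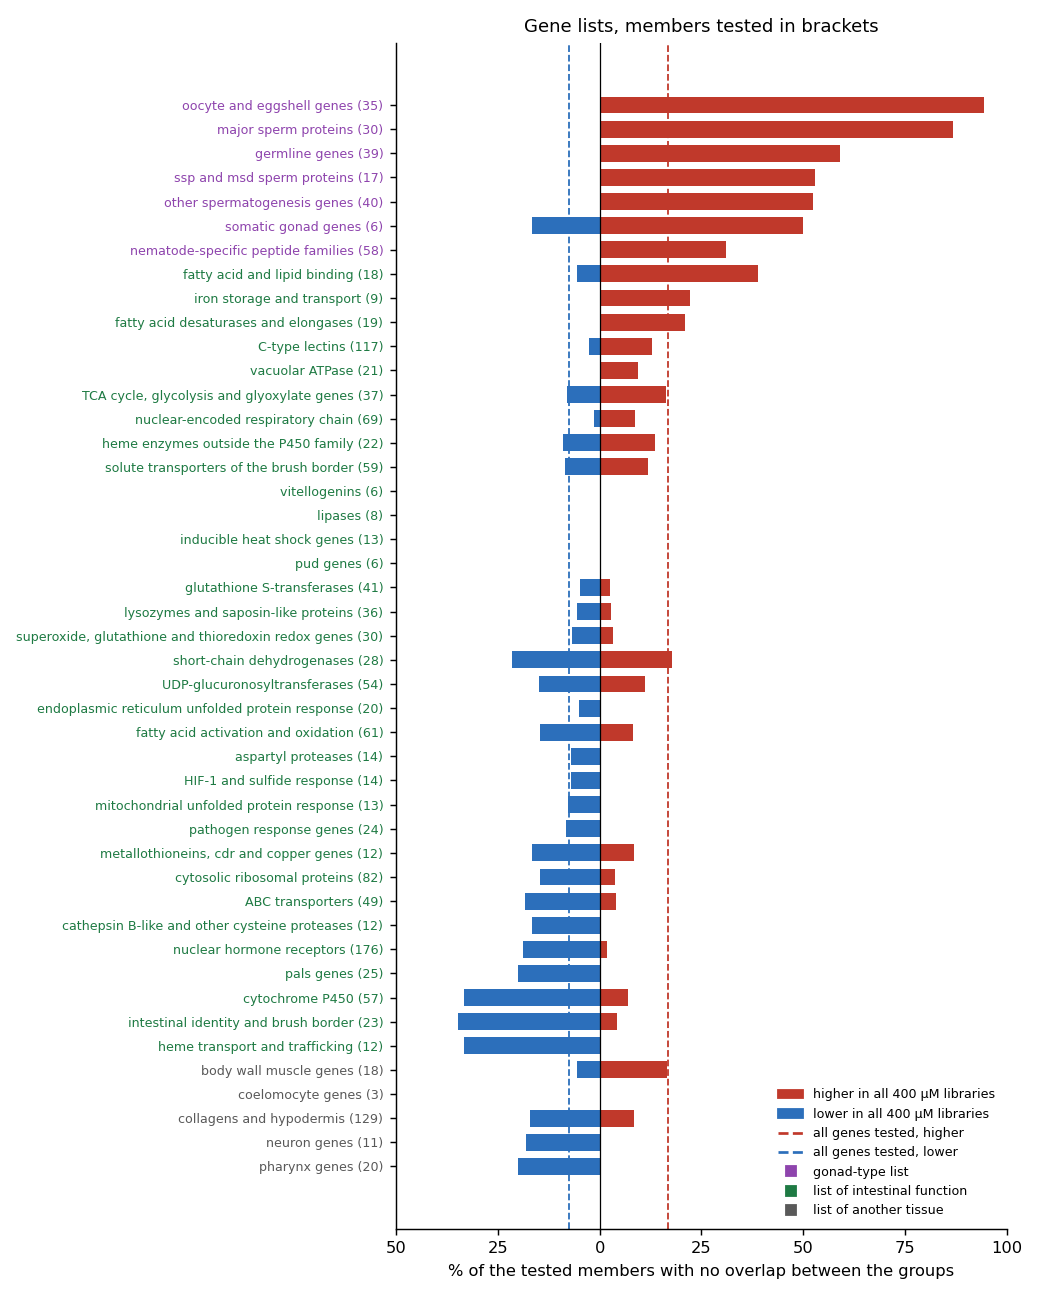
Percent of the tested members of each list whose 400 µM libraries all lay above (red, to the right) or all below (blue, to the left) the 20 µM libraries; members tested are in brackets, and dashed lines give the same over all genes tested (16.7% higher, 7.44% lower). Gonad-type lists (purple names) lie to the right, up to 94.3% for oocyte and eggshell genes, and the brush border, heme transport and cytochrome P450 lists reach furthest to the left (34.8, 33.3 and 33.3%).

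Genes of other tissues moved between the libraries as well. All 20 tested pharynx genes had a negative log2 fold change (median -3.39), and 4 were lower without overlap (20%, against 7.44% of all genes). The list summed to 832, 136 and 90.4 CPM at 400 µM and 2883, 2096 and 207 CPM at 20 µM. The groups overlapped in that sum, since replicate 3 at 20 µM lay below replicate 1 at 400 µM. As an example, the pharyngeal gland gene phat-2 had 1.6, 0.343 and 0.313 CPM at 400 µM, against 3.11, 188 and 2.73 CPM at 20 µM, and most of its difference came from replicate 2 at 20 µM. The list of collagens and hypodermal genes counted 22 lower (17.1%) and 11 higher (8.53%) without overlap of 129. It holds the cuticle collagens but also dpy genes that do not make cuticle, such as dpy-22 and dpy-27, both lower without overlap. Its sums were 22113, 7806 and 3144 CPM at 400 µM and 7831, 2314 and 1682 CPM at 20 µM. Body wall muscle genes summed to 2706, 745 and 469.9 CPM at 400 µM and 1334, 403 and 224 CPM at 20 µM. Replicate 1 was the highest library of its dose for muscle and collagens at both doses. Whether RNA of these tissues bears on the genes described above was not tested.

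The fit without replicate 1 at 20 µM, the library high in heat shock genes, called many more genes and moved the median of the log2 fold changes over all its genes to 0.32. It called 571 of 14369 genes higher (3.97%) and 382 lower (2.66%). Gonad-type genes made up 65 of the higher genes, with 17 oocyte and eggshell genes and 21 nematode-specific peptide genes, and none of the lower ones. The lists of intestinal function held 33 higher and 29 lower, with a median log2 fold change of 0.00. C-type lectins stood at 10 higher and 1 lower, cytochrome P450 genes at 2 higher and 3 lower, ABC transporters at 0 higher and 6 lower, pals genes at 0 higher and 4 lower and nuclear hormone receptors at 1 higher and 3 lower. Of the heme transport list 1 gene was lower, and the list's median log2 fold change became -0.36, against -1.01 with all libraries. Medians changed sign without this library for the vitellogenins (2.20, against -0.49 with all libraries) and the inducible heat shock genes (3.59, against -4.40). The sign also changed for the medians of the cysteine protease, lipase, lysozyme, pathogen response, HIF-1, unfolded protein (endoplasmic reticulum), vacuolar ATPase and pud lists, besides those given with their values above. Over the genes tested with all libraries, the median itself moved from -0.03 to 0.31. The HIF-1 (0.02), unfolded protein (0.12) and lysozyme (0.17) medians stayed below 0.31, as did those of the redox (0.07), solute transporter (0.08) and short-chain dehydrogenase (0.14) lists. The other medians named here lay above it.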

How the data were processed

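RNA from dissected intestines of N2 worms was measured in 9 libraries, 3 each at 400, 20 and 2 µM heme, each library from 3 worms. The authors deposited 1 table with raw read counts per gene and FPKM values per gene, per the file headers; Bowtie 0.12.2 and the build WBcel235 are named in the submitters' processing notes, and how reads matching several genes were counted is not given in the sources used here. Counts were tested as deposited, and the deposited FPKM served only to rank genes for naming. Of 21776 genes, 21714 matched the RefSeq gene table of WBcel235, which gave the coordinates.

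All 9 libraries were fitted together in edgeR 4.0.16 (R 4.3.3) with 1 coefficient per dose, filterByExpr, TMM scaling and the quasi-likelihood test of 400 minus 20 µM heme, with Benjamini-Hochberg adjustment over the 13434 genes tested and a threshold of 0.05. DESeq2 1.42.0 and limma 3.58.1 served as alternatives, and tables were made with pandas 2.3.3. The fits were tested on simulated counts. The members, gene lists and tests were chosen with earlier results of these data known. Lists got no test of their own, and 3 against 3 libraries cannot go below an exact two-sided permutation p of 0.10. For a gene with 0 counts in every 20 µM library, the fold is a lower bound against 3 counts over the 3 libraries, a limit for counting error only. Likeness is the Pearson correlation of log2(CPM + 1) with the log2 summed CPM of a list over the 9 libraries. The likeness to the major sperm protein, ssp and msd genes was chosen after seeing the data.

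Named genes were taken by rule: the 12 largest rises and falls among changed genes outside the gonad-type lists (or, with fewer than 3 called, the 12 smallest p-values), the 8 largest rises within them, every heme transport gene whatever its level, and up to 3 genes of smallest p per list, with at least 10 CPM in 1 group (those of the first part also without overlap), the 10 genes of highest FPKM, the 12 smallest p-values without overlap in each direction outside the gonad-type and other-tissue lists, and the 5 called genes most and least like the sperm lists. The markers ges-1, elt-2 and ifb-2 come from the fixed marker lists. The genes inx-9, ipp-5, pbo-4, rpl-11.2, spch-2, cyb-1 and cyp-31A2 were named after their values were seen. So were fis-1, snb-6, scrm-6, mpz-3, msrp-3, Y38H8A.3 and C39H7.1. No sequence is printed, since none was read from a reference here.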

Additional observations from a re-analysis of the deposited data

How the results depend on the processing

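The counts of changed genes, 73 higher and 1 lower at 400 µM heme, depended strongly on the processing. DESeq2 size factors gave 72 higher and 1 lower, and removing ribosomal RNA genes gave 74 and 1. The DESeq2 Wald test gave 1206 higher and 450 lower, no filter on low counts 147 and 0, at least 10 CPM in 3 libraries 41 and 1, and removal of the gonad-type genes 8 and 0. Both counts were 0 with limma-voom (1912 genes at an unadjusted p under 0.05), with only the 6 libraries compared (1756) and with 2 µM replicates 2 and 3 summed (2157). They were also 0 with the sums of all sperm lists and of the oocyte and germline lists as covariates (955). In replicate 1 at 20 µM, nematode-specific peptide genes held 16723 of the 16990 CPM of the sperm lists. That covariate therefore does not stand for sperm proteins alone. The sperm protein sum as covariate, an alternative chosen after seeing the data, gave 0 and 0 as well (661). Leaving out 1 library at a time gave 0 to 571 genes higher and 0 to 382 lower, both highest without 20 µM replicate 1. The cause was not tested. The replicate block gave 0 higher and 0 lower (2391 at an unadjusted p under 0.05). Same-numbered 400 and 20 µM libraries had correlations of their deviations of 0.174, -0.112 and 0.259 for replicates 1, 2 and 3, so the numbers were not taken to pair the libraries. The median log2 fold change of gonad-type genes, 2.98, was 1.35 with the sperm protein covariate, 2.18 with both sums as covariates, 3.42 at 10 CPM, 3.98 with limma-voom, 3.50 with the block and 2.72 to 4.04 without single libraries. That of genes of intestinal function, -0.40, was -0.11 with the sperm protein covariate and with limma-voom, -0.16 with the block and -0.47 to 0 without single libraries. The median of all genes tested was -0.03, and 0.24 with limma-voom, 0.21 with the block and 0.32 without 20 µM replicate 1, so changes under those settings stand relative to it. Only 56 of the genes named were followed under 21 alternatives. Of their values 0 reversed, 216 lost and 65 gained the threshold, and 20 were not tested (4 under the filter of 10 CPM and 16 in the fit without gonad-type genes). The other 875 kept their side of the threshold, which includes genes that stayed uncalled. Some list medians did change sign, as given above. At 20 µM, 3 counts over the group correspond to 0.0225 CPM, the level used as the floor for folds against 0 counts; some genes had counts there and a mean level below it.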

Other observations

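The collagen list held 2 sets of genes with opposite patterns, chosen after their values were seen. A first set was represented by col-119, a cuticle collagen, with 638, 416 and 136 CPM at 400 µM, against 116, 3.84 and 21.9 CPM at 20 µM. Its companion col-122 had 1979, 765 and 339 CPM at 400 µM, against 294, 49.1 and 133 CPM at 20 µM. In both genes every 400 µM library lay above every 20 µM library. A second set was near 0 at 400 µM, as in col-49 with 0, 0 and 0.104 CPM at 400 µM, against 5.81, 191 and 0.282 CPM at 20 µM, and dpy-4, a collagen that shapes the body, with 0.127, 0.108 and 0.0783 CPM at 400 µM, against 22.3, 44.4 and 0.188 CPM at 20 µM. In this set replicates 1 and 2 held most of the 20 µM signal, and replicate 3 had little. No gene of the list passed the edgeR test.

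Stress and defence lists not described so far gave few separated genes, and none passed the edgeR test. Over all genes tested, 7.44% were lower and 16.7% higher without overlap. Genes of the endoplasmic reticulum unfolded protein response counted 1 lower and 0 higher of 20 without overlap, with a median log2 fold change of -0.47, or 0.12 without replicate 1 at 20 µM. Genes of the mitochondrial unfolded protein response counted 1 lower and 0 higher of 13 (median -0.19, or -0.30 without that library). Lysozymes and saposin-like proteins, which attack bacteria, counted 2 lower and 1 higher of 36 (median -0.30, or 0.17). Pathogen response genes counted 2 lower and 0 higher of 24 (median -0.59, or 1.95), and lipases 0 lower and 0 higher of 8 (median -1.25, or 1.29).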
